A study of Mus musculus with 10 samples.

Results

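The genes described here are 35 nuclear-encoded structural subunits of respiratory complex I, taken by gene symbol from the 24972 genes in the deposited gene tables, and all 35 were present. RNA-seq was done on cortical total RNA from 5 mice of genotype Atad3 nKO and 5 of genotype Atad3 control, all of them males on a C57BL/6 background at 2.5 months, the controls being littermates. The animals were perfused before dissection, and each library came from 1 animal. What nKO stands for, which exons were deleted and in which cells is not given in the labels, and the tissue was whole cortex, so fewer cells of a type and less RNA per cell cannot be told apart.

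Complex I (NADH:ubiquinone oxidoreductase) is the largest enzyme of the respiratory chain. It is shaped like an L. The arm that stands in the mitochondrial matrix takes electrons from NADH through a flavin and a row of iron-sulfur clusters to ubiquinone, and the arm that lies in the inner membrane pumps protons. A small core is shared with bacteria and does the catalysis, while the many accessory subunits surround it and are needed for its assembly and stability. The proton pumping core of the membrane arm is encoded in mitochondrial DNA. The tables hold 0 mitochondrially encoded genes, so those subunits were not analysed here. In neurons the chain supplies most of the ATP, and the protein encoded by Atad3a sits in the same inner membrane.

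By gene name, 10 of the subunits (Ndufs and Ndufv) stand for the matrix arm, 12 (Ndufb and Ndufc) for the membrane arm, and 13 (Ndufa and Ndufab1) are spread over both. By position in the structure, 15 lie in the matrix arm, 19 in the membrane arm, and Ndufab1, the acyl carrier protein, sits in both. The list holds 6 core subunits, each in the matrix arm, and 29 accessory subunits.

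The libraries held 14812639 to 24161361 estimated counts. Of the genes in the tables, 14378 passed the filter on low counts, among them all 35 subunits. Levels below are CPM, the counts of a gene scaled to library size with the trimmed mean of M values, and differences are log2 fold changes of nKO minus control from edgeR's quasi-likelihood test. Atad3a (NCBI gene 108888, mm10 chromosome 4, 155740640 to 155761124) read 26.6, 22.5, 24.5, 22.5 and 22.2 CPM in controls 1 to 5 and 11.5, 11.7, 14.4, 8.95 and 10.8 CPM in nKO 1 to 5. Its groups did not overlap, and it fell by 1.04 on the log2 scale (SE 0.12, 95% interval -1.30 to -0.78, edgeR adjusted p = 0.00634). Over all genes, 2 passed the 5% threshold (0.0139% of those tested). Control 1 (-46.8) and nKO 4 (29.8) lay at the ends of principal component 1 (33.6% of the variance). Both libraries keep their labels below, and the counts for the groups of subunits are also given without them.

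No complex I subunit passed the 5% threshold: 0 of 35, against 0.0139% of all tested genes. The smallest adjusted p among them was 0.820 (edgeR, Benjamini-Hochberg over all tested genes), and DESeq2's Wald test, which called 5 genes over all, also called 0 of them. The estimates lay mostly on one side of zero. Of the 35 subunits 33 had a lower estimate in nKO, against 52.2% of all tested genes, with a median log2 fold change of -0.11 against -0.0078 over all genes. At an unadjusted p under 0.05, 4 were lower (2.29% of all tested genes were) and 0 were higher (3.36% were). The 4 were Ndufv1, Ndufb9, Ndufb11 and Ndufb6, and the count was 1 without any one of control 1, control 3, control 4, nKO 1, nKO 4 or nKO 5, and 2 without nKO 2 or nKO 3. Estimates ran from -0.41 for Ndufs7 to 0.03 for Ndufa5. The median SE was 0.091 (0.060 to 0.32). In the fit without control 1 and nKO 4, 26 of 35 were lower (52.0% of all genes), the median was -0.089, and at an unadjusted p under 0.05 there were 2 lower (3.35% of all genes) and 0 higher (5.76%).

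**Figure D1:**
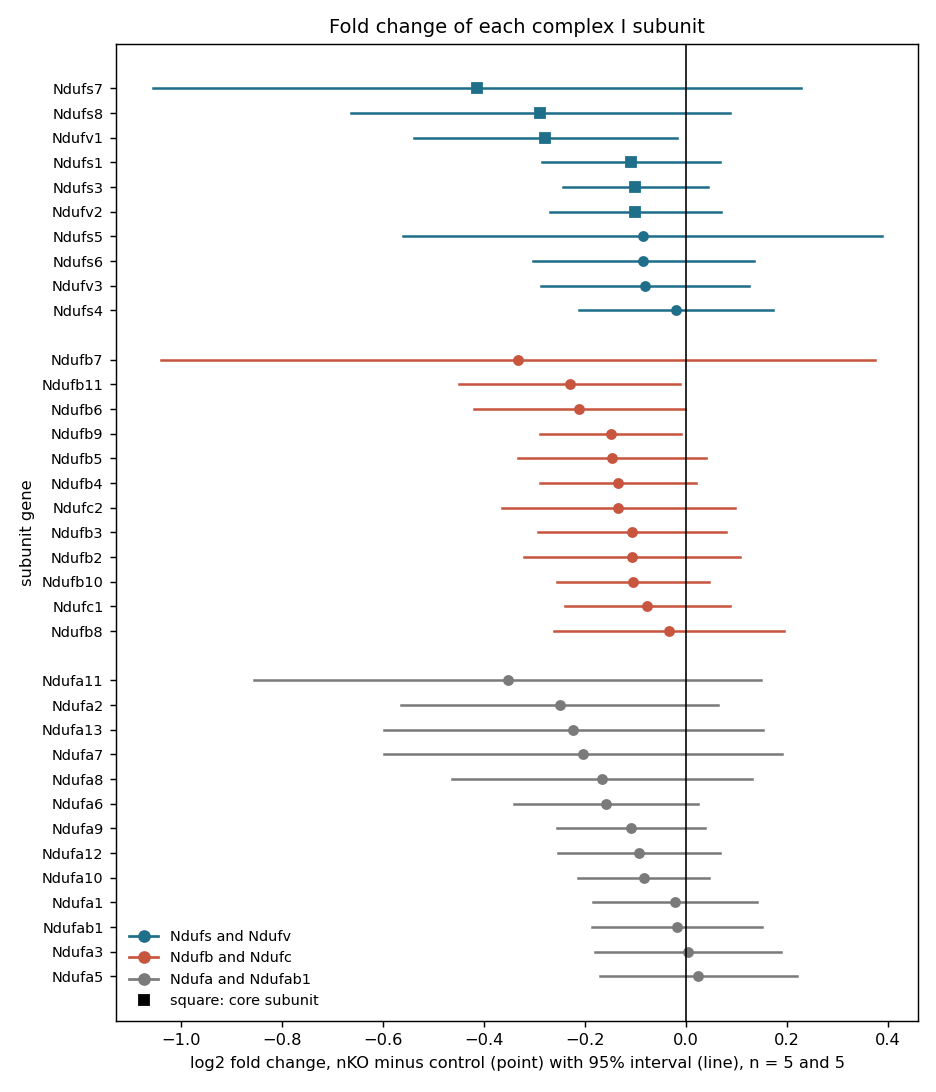
Log2 fold change (nKO minus control, horizontal axis) of each of the 35 complex I subunits, with 95% intervals as lines, n = 5 animals in each group. Colours mark the Ndufs and Ndufv, the Ndufb and Ndufc, and the Ndufa and Ndufab1 genes, and squares mark the 6 core subunits. Points for 33 of 35 subunits lie left of zero, and the intervals of Ndufv1, Ndufb9, Ndufb11 and Ndufb6 end below it.

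The 6 core subunits were examined first. All 6 had lower estimates in nKO (52.2% of all tested genes did), with a median of -0.19. Without control 1 and nKO 4, 5 of 6 were lower (52.0% of all genes), with a median of -0.13. Ndufv1, which binds the flavin and receives the electrons of NADH, lies on chromosome 19 (4007499 to 4012755). It read 143, 99.2, 113, 126 and 118 CPM in controls 1 to 5, and 103, 109, 112, 73.2 and 98.2 CPM in nKO 1 to 5. The groups overlapped, control 1 was the highest library and nKO 4 the lowest. The means were 120 ± 16.3 CPM (SD, n = 5) and 99.0 ± 15.3 CPM (SD, n = 5). Its log2 fold change of -0.28 (SE 0.12, -0.54 to -0.02) had an unadjusted p of 0.038 and an adjusted p of 0.820 by edgeR's quasi-likelihood test. Without control 1 and nKO 4 it was -0.13, with an unadjusted p of 0.153. It was lower in each of 23 fits, from -0.34 to -0.13.

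Ndufv2 (chromosome 17, 66078795 to 66101559) carries an iron-sulfur cluster beside the flavin site. It read 102, 121, 129, 111 and 109 CPM in controls and 96.8, 105, 107, 114 and 112 CPM in nKO. Here control 1 was the lowest control and nKO 4 the highest nKO library, and the log2 fold change was -0.10 (SE 0.078). Ndufs1 (chromosome 1, 63143592 to 63176822), the largest subunit of the arm and the holder of several iron-sulfur clusters, read 191, 230, 247, 229 and 217 CPM in controls and 191, 194, 202, 234 and 212 CPM in nKO. Again control 1 lay lowest among controls and nKO 4 highest among nKO libraries. Its log2 fold change was -0.11 (SE 0.082). In the fit without control 1 and nKO 4 it was -0.22, with an unadjusted p of 0.006 (edgeR) that did not pass the adjustment.

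Ndufs3 (chromosome 2, 90894627 to 90904721), a subunit of the part near ubiquinone that carries no iron-sulfur cluster, read 81.1, 80.2, 90.8, 90.2 and 82.8 CPM in controls and 82.5, 75.0, 81.0, 80.3 and 77.9 CPM in nKO. The groups overlapped, with a log2 fold change of -0.10 (SE 0.067). Ndufs8 (chromosome 19, 3908863 to 3912774), a ferredoxin-like protein that passes electrons towards ubiquinone, read 58.8, 36.2, 41.8, 40.3 and 40.5 CPM in controls and 38.2, 39.5, 44.8, 22.9 and 32.9 CPM in nKO. Control 1 stood far above the other controls and nKO 4 far below the other nKO libraries. Its log2 fold change of -0.29 (SE 0.17) came to -0.04 without those libraries.

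Ndufs7 (chromosome 10, 80249105 to 80256794) holds the last iron-sulfur cluster before ubiquinone, and it had the lowest estimate of the 35. It read 50.8, 18.4, 17.7, 21.95 and 19.9 CPM in controls and 19.2, 20.6, 23.6, 12.5 and 20.6 CPM in nKO. Outside control 1 and nKO 4 the groups overlapped, at 17.7 to 21.95 CPM in controls and 19.2 to 23.6 CPM in nKO. The means were 25.8 ± 14.1 CPM in controls against 19.3 ± 4.10 CPM in nKO (SD, n = 5 in each group), and the log2 fold change was -0.41 (SE 0.29, -1.06 to 0.23). Without control 1 and nKO 4 it was 0.10.

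Core subunits that were high in control 1 and those that were low there differed in base composition. The transcript of Ndufs7 had the highest share of G and C of the 35 (60.7%), and that of Ndufv2 the lowest (42.0%). The stretches below are coding bases 151 to 300, counted from the A of the start codon, of Ndufs7 and Ndufv2 and of 2 accessory subunits, Ndufa13 (chromosome 8, 69894163 to 69902558) and Ndufs4 (chromosome 13, 114287795 to 114388094). They lie in coding exons, come from GENCODE transcripts on GRCm38 (the assembly of mm10), and are shown 5′ to 3′ on the strand of the gene with every G and C in capitals, so that the difference in composition can be seen. G and C made up 62.7% of the stretch of Ndufs7, 59.3% of that of Ndufa13, 47.3% of that of Ndufv2 and 39.3% of that of Ndufs4.
Ndufs7: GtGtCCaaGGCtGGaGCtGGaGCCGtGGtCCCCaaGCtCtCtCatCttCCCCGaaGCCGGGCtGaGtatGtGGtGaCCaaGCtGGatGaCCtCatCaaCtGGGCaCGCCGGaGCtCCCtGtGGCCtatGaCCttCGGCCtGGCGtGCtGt
Ndufa13: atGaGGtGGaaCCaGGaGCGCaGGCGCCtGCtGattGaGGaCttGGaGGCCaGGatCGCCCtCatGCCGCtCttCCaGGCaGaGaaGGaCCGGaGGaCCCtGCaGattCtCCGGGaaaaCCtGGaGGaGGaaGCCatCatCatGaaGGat
Ndufv2: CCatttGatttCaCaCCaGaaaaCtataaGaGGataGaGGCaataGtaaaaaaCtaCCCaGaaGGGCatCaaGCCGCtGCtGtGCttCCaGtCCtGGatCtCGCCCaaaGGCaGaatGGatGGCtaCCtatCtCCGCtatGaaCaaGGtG
Ndufs4: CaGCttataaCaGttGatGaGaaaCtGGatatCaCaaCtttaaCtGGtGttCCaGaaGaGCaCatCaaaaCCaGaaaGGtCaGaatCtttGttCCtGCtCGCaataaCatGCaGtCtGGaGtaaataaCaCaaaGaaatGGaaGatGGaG

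The transcripts' GC content ranked the subunits by how far control 1 and nKO 4 stood from their groups. Control 1 was 2.61 times the mean of the other 4 controls for Ndufs7 and 0.869 times for Ndufv2. For Ndufa13, a membrane arm subunit also known as GRIM-19, it was 1.56 times, and for Ndufs4 it was 0.800 times. In nKO 4 the order was turned: Ndufs7 was at 0.597 of the mean of the other 4 nKO libraries and Ndufa13 at 0.616, while Ndufv2 was at 1.08 and Ndufs4 at 1.11. Across the 35 subunits Spearman's rho between GC content and the control 1 ratio was 0.69, and that for the nKO 4 ratio was -0.65. Over all tested genes the values were 0.71 (14121 genes) and -0.72 (14122 genes). These are descriptions across genes, which share their libraries and are not independent.

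**Figure D2:**
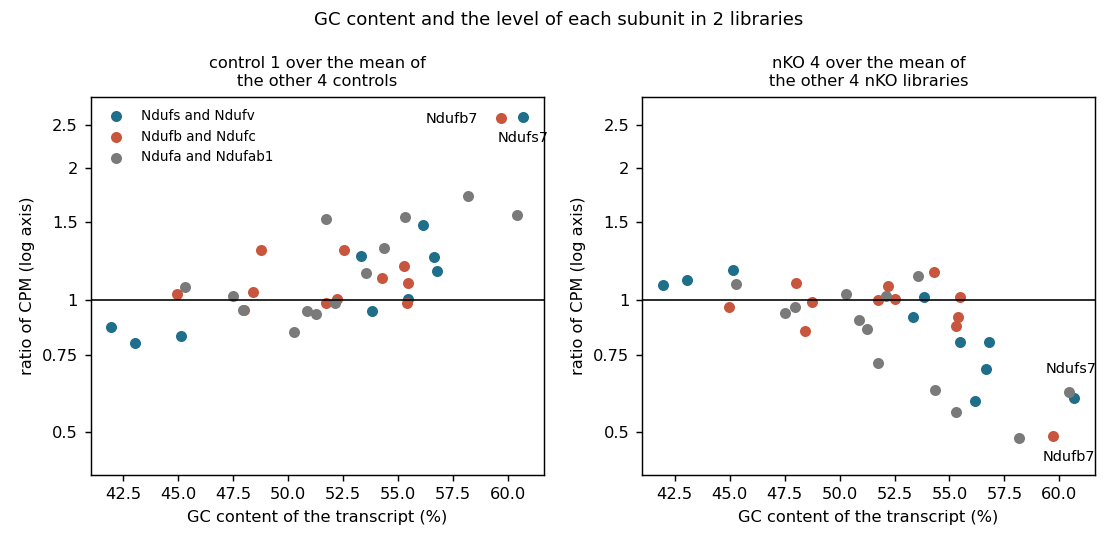
CPM ratio of control 1 to the mean of the other 4 controls (left) and of nKO 4 to the mean of the other 4 nKO libraries (right), on a log axis, against the GC content of each subunit's transcript in percent. Each point is 1 of the 35 subunits, coloured by gene name. Ratios rise with GC content to 2.61 (Ndufs7) on the left, and fall with it to 0.486 (Ndufa11) on the right.

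Control 1 was the highest control for 15 subunits, of which 12 lay above the subunits' median GC content of 52.5%. For 17 subunits nKO 4 was the lowest nKO library, and again 12 of them lay above the median. The 17 subunits above the median GC content had a median log2 fold change of -0.16, with 17 lower (52.2% of all tested genes were). Without control 1 and nKO 4 this came to -0.0098, with 9 lower (52.0% of all genes). The 18 at or below the median had -0.10, with 16 lower, and without those libraries -0.10, with 17 lower. With all libraries, 73.9% of all tested genes were lower in the highest of 10 bins of GC content and 41.1% in the lowest. The rho between GC content and log2 fold change over the subunits was -0.50, and 0.48 without control 1 and nKO 4. Over all tested genes it was -0.26, and 0.37 without them. Genes other than the subunits showed the same order of libraries: the highest of 10 bins of GC content minus the lowest was 0.887 in control 1 and -0.641 in nKO 4, and between -0.423 and 0.228 in the other 8 libraries (difference of the median deviations from each gene's own average, log2). The cause of this dependence on GC content was not tested.

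**Figure D3:**
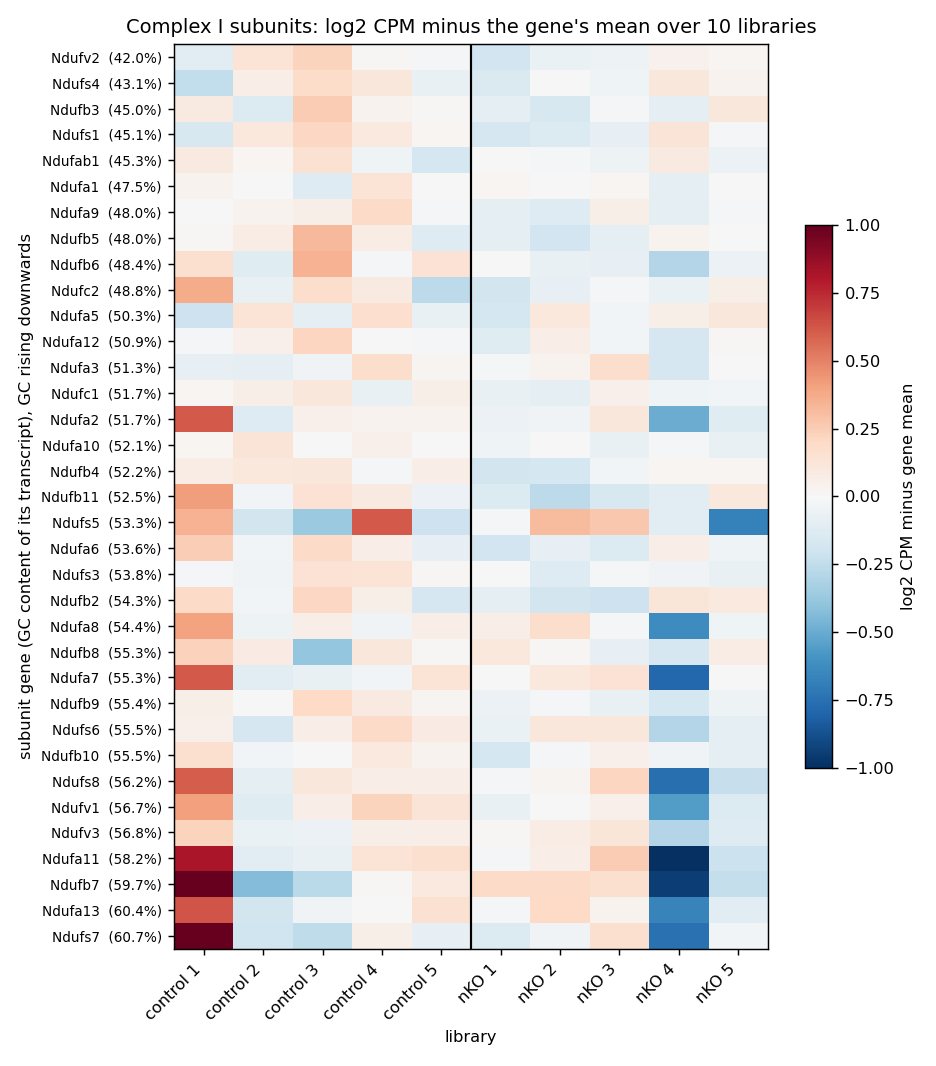
Log2 CPM minus the gene's own mean over the 10 libraries (colour, limited to -1 and 1) for the 35 subunits in rows, sorted by the GC content of the transcript, and the 10 libraries in columns, controls left of the line and nKO right of it. The lowest rows, from Ndufs8 down, are red in control 1 and blue in nKO 4, while most of the upper rows are closer to zero in both. Ndufs5 stands out by its spread in other libraries.

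The accessory subunits of the matrix arm by name were examined next. Ndufs4, which joins the NADH-oxidising part to the rest and whose loss causes Leigh syndrome, had a log2 fold change of -0.02 (SE 0.089), with 57.7 to 77.8 CPM in controls and 62.0 to 74.2 CPM in nKO. Ndufs6, a zinc-binding subunit, had -0.08 (SE 0.10). Ndufv3, attached to the flavin-binding part, had -0.08 (SE 0.095). Ndufs5 carries a name of the matrix arm but lies on the intermembrane space side of the membrane arm, and its log2 fold change was -0.09 (SE 0.22). It read 33.1, 23.0, 20.1, 39.7 and 22.6 CPM in controls and 25.8, 32.4, 31.4, 24.2 and 16.3 CPM in nKO, so that control 4 was the highest library and nKO 5 the lowest. None of these had a difference beyond its error. Leaving out control 1 and nKO 4 gave -0.12 for Ndufs4, -0.033 for Ndufs6, 0.01 for Ndufv3 and 0.0053 for Ndufs5.

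All 12 Ndufb and Ndufc genes, which encode accessory subunits of the membrane arm, had lower estimates in nKO (52.2% of all tested genes did), with a median of -0.13. The count was 10 of 12 without control 1 and nKO 4 (52.0% of all genes), with a median of -0.11, and 8 of 12 with the length and GC trends described below (50.9% of all genes). Ndufb9 (chromosome 15, 58933801 to 58939516) is an LYR-motif protein that holds the acyl carrier protein on this arm. It read 121, 116, 134, 124 and 119 CPM in controls and 112, 116, 111, 103 and 112 CPM in nKO. Every nKO library lay below every control, although control 2 (116.3 CPM) and nKO 2 (115.7 CPM) were close. The log2 fold change was -0.15 (SE 0.065, -0.29 to -0.0090), with an unadjusted p of 0.039 and an adjusted p of 0.820 by edgeR. Groups without overlap were found for 2 of 35 subunits with nKO below (0.675% of all tested genes) and for 0 of 35 with nKO above (0.702%). Without control 1 and nKO 4 they were found for 3 with nKO below (2.16%), Ndufs1 being added, and for 0 with nKO above (2.87%). Beside Ndufb9, the gene without overlap in all 10 libraries was Ndufa10 (chromosome 1, 92439486 to 92473825), a membrane arm subunit with the fold of a nucleoside kinase. It read 96.9, 104, 95.6, 99.1 and 95.9 CPM in controls and 93.0, 95.4, 91.0, 94.4 and 90.5 CPM in nKO. Control 3 at 95.6 CPM and nKO 2 at 95.4 CPM nearly met. Its log2 fold change was -0.08 (SE 0.060), the smallest SE among the subunits.

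Ndufb11 (X chromosome, 20615326 to 20617619), a single-pass membrane protein, read 66.9, 49.1, 55.3, 53.3 and 48.0 CPM in controls and 45.4, 41.6, 44.9, 46.6 and 53.8 CPM in nKO. The groups overlapped through nKO 5, which lay above 3 controls, and control 1 was the highest. The log2 fold change was -0.23 (SE 0.10), with an unadjusted p of 0.041 by edgeR, and -0.16 without control 1 and nKO 4 (unadjusted p 0.107). Ndufb6 (chromosome 4, 40270591 to 40279421), also a single-pass membrane protein, read 39.2, 32.3, 44.6, 34.5 and 38.7 CPM in controls and 34.95, 33.3, 33.2, 28.7 and 33.7 CPM in nKO. Its nKO libraries were tighter than its controls apart from nKO 4. Its log2 fold change was -0.21 (SE 0.097), with an unadjusted p of 0.048 by edgeR, and -0.16 without control 1 and nKO 4 (unadjusted p 0.126).

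Ndufb4 (chromosome 16, 37647602 to 37654368) was the member next in order of p. It read 49.6, 50.6, 50.9, 46.6 and 49.3 CPM in controls and 41.5, 41.6, 46.3, 47.7 and 47.9 CPM in nKO, with a log2 fold change of -0.13 (SE 0.071, unadjusted p 0.082 by edgeR). A similar gene, Ndufb4c, is listed at a mean of 5.00 CPM, so reads shared by the 2 sequences could be split between them. Ndufb7 (chromosome 8, 83566758 to 83571623), a protein of the intermembrane space side with paired cysteines, had the largest SE of the 35. It read 37.9, 11.9, 13.3, 16.2 and 17.1 CPM in controls and 18.3, 18.3, 17.9, 8.36 and 13.6 CPM in nKO. Control 1 was 2.59 times the mean of the other controls, and nKO 4 was 0.491 times that of the other nKO libraries. Its log2 fold change was -0.33 (SE 0.32, -1.04 to 0.37), and 0.21 without control 1 and nKO 4. The remaining Ndufb and Ndufc genes (Ndufb2, Ndufb3, Ndufb5, Ndufb8, Ndufb10, Ndufc1 and Ndufc2) had log2 fold changes from -0.15 (Ndufb5) to -0.03 (Ndufb8), and in each of them the groups overlapped. Ndufc2 moved from -0.13 to -0.057, and Ndufb8 to 0.05, without control 1 and nKO 4.

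Of the 13 Ndufa and Ndufab1 genes, 11 had lower estimates in nKO (52.2% of all tested genes did), with a median of -0.11. Without control 1 and nKO 4, 9 of 13 were lower (52.0% of all genes), and the median was -0.032. Ndufa11 (chromosome 17, 56717762 to 56724248), a membrane arm subunit related to the Tim17 family of import proteins, read 44.5, 23.3, 24.1, 27.7 and 28.3 CPM in controls and 24.9, 26.4, 30.1, 12.5 and 21.8 CPM in nKO. Its GC content was 58.2%, and it was again highest in control 1 and lowest in nKO 4. The log2 fold change was -0.35 (SE 0.23), and -0.0098 without those libraries. Both genes with an estimate above zero belong here. Ndufa5 (chromosome 6, 24518662 to 24527690), a matrix arm subunit, read 47.6, 60.3, 51.6, 61.6 and 52.2 CPM in controls and 48.6, 59.1, 53.9, 57.1 and 59.5 CPM in nKO, with a log2 fold change of 0.03 (SE 0.091). Ndufa3 (chromosome 7, 3617347 to 3620165), a small single-pass membrane protein, read 34.5, 34.1, 35.7, 41.3 and 37.4 CPM in controls and 36.0, 37.4, 41.2, 32.5 and 36.5 CPM in nKO. Its groups covered the same range, with a log2 fold change of 0.0047 (SE 0.085). The sign of neither was stable: over the 23 fits Ndufa3 was below zero in 12 and Ndufa5 in 4.

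Ndufab1 (chromosome 7, 122086815 to 122101848), the acyl carrier protein, read 42.5, 40.5, 44.3, 38.8 and 35.5 CPM in controls and 39.9, 39.8, 38.6, 42.5 and 38.4 CPM in nKO, and its log2 fold change was -0.02 (SE 0.078). Its 95% interval, -0.18 to 0.15, covered both a small decrease and a small increase. Ndufa1, an X-linked membrane subunit, had -0.02 (SE 0.075). Ndufa9, which binds NADPH near the ubiquinone site, had -0.11 (SE 0.068), and Ndufa6, the LYR-motif protein that holds the acyl carrier protein on the matrix arm, had -0.16 (SE 0.085). The other members (Ndufa2, Ndufa7, Ndufa8, Ndufa12 and Ndufa13) had log2 fold changes from -0.25 (Ndufa2) to -0.09 (Ndufa12), and their groups overlapped. In the fit that leaves out control 1 and nKO 4, Ndufa2 was at -0.032, and Ndufa7, Ndufa8 and Ndufa13 were above zero at 0.07, 0.02 and 0.03.

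Whether the matrix arm and the membrane arm differed in their response was then examined. The median log2 fold change was -0.0997 for the 10 Ndufs and Ndufv genes and -0.13 for the 12 Ndufb and Ndufc genes, a difference of 0.035. Within each library, the mean log2 CPM of the matrix arm exceeded that of the membrane arm by 0.205, 0.209, 0.150, 0.330 and 0.234 in controls 1 to 5, and by 0.210, 0.326, 0.337, 0.116 and 0.0878 in nKO 1 to 5. The nKO values covered the whole range of the controls. The means were 0.226 ± 0.066 (SD, n = 5) and 0.215 ± 0.115 (SD, n = 5), which differed by -0.010, less than the spread within either group. With arms by position in the structure they were 0.309 ± 0.036 (SD, n = 5) and 0.301 ± 0.032 (SD, n = 5). Leaving out Ndufs5, the spread in controls was narrower (0.348 ± 0.038, SD, n = 5) than with it, against 0.330 ± 0.092 in nKO (SD, n = 5 in each group). The difference of the arms' medians was between -0.015 and 0.041 in the fits with other scalings, tests, filters or offsets, and 0.032 without control 1 and nKO 4. With 1 library left out it ran from -0.010 (without control 1) to 0.051 (without nKO 5), and it was also below zero without nKO 2 (-0.0023), so its sign is not settled.

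**Figure D4:**
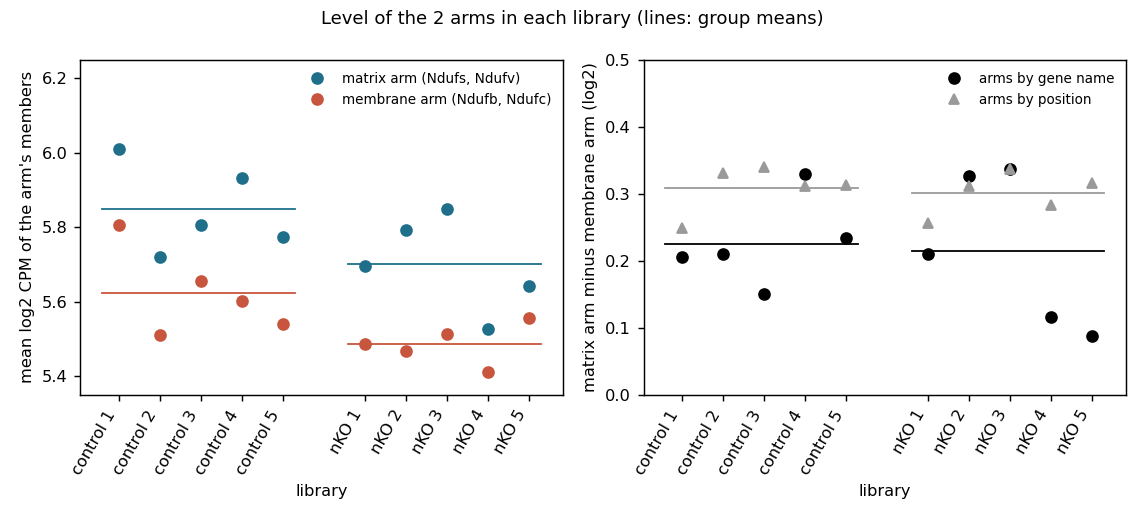
Left, mean log2 CPM of the matrix arm (10 Ndufs and Ndufv genes) and of the membrane arm (12 Ndufb and Ndufc genes) in each library. Right, the matrix arm minus the membrane arm on the log2 scale, with arms by gene name (circles) or by position in the structure (triangles). Horizontal lines are group means over 5 libraries. Both arms are highest in control 1 and lowest in nKO 4, and the differences on the right overlap between groups.

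The mean log2 CPM over all 35 subunits was 5.66 ± 0.109 in controls against 5.53 ± 0.098 in nKO (SD, n = 5 in each group). The highest library was control 1 (5.84) and the lowest nKO 4 (5.36), and the groups overlapped between control 2 (5.56) and nKO 3 (5.62). On the scale of TPM, for which the authors' tool divided counts by effective lengths estimated for each library and scaled every library to the same total, the sum over the subunits was 9398 ± 378 in controls against 9020 ± 211 in nKO (SD, n = 5 in each group). On that scale control 1 was the lowest control (8943), and no longer the highest library.

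Transcript length was accounted for in several ways, because most complex I subunits are small proteins with short messenger RNAs. Their median length was 688 bases (effective length 462), against 2994 (2642) over all tested genes. When all tested genes were cut into 10 bins of equal size by effective length, 26 of the 35 fell in the shortest bin, 5 in the next, 2 in the third, and Ndufa11 and Ndufs1 further up. The place of Ndufa11 is uncertain, because its deposited length is 2661 bases and its matched GENCODE transcript has 545. All genes together showed a gradient: the median log2 fold change was -0.10 in the shortest bin, where 73.8% of genes were lower, and 0.06 in the longest, where 24.6% were lower. The 26 subunits in the shortest bin had a median of -0.12, with 24 lower. Once the trend of log2 fold change on effective length over all genes was subtracted, the median over the 35 subunits was -0.013, against -0.11 before. It was -0.0089 with a lowess span of 0.6 and -0.030 with the median of the same length bin subtracted. With a trend on annotated transcript length it was -0.037.

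With a length trend for each library entered as an offset in the fit, 25 of 35 subunits were lower (53.7% of all genes), with a median of -0.027, and at an unadjusted p under 0.05 there were 1 lower (2.14% of all genes) and 0 higher (2.54%). The lower one was Ndufv1 at -0.23 (unadjusted p 0.035, edgeR). With GC trends alone the median was -0.12, with 32 lower (51.1% of all genes) and, at an unadjusted p under 0.05, 8 lower (4.42%) and 0 higher (5.68%). With length and GC trends together it was -0.032, with 23 lower (50.9%) and, at an unadjusted p under 0.05, 3 lower (3.96%) and 0 higher (4.53%). The 3 were Ndufv1 (-0.19, SE 0.0624), Ndufs1 (-0.12, SE 0.0489) and Ndufa11 (-0.27, SE 0.121). The value of Ndufa11 under a length trend rests on its doubtful deposited length of 2661 bases, so its place among them is uncertain. With the effective lengths from the files as offsets, all 35 were lower (52.0% of all genes), with a median of -0.13 and, at an unadjusted p under 0.05, 9 lower (4.19%) and 0 higher (5.5%). No subunit passed the 5% threshold in any of these fits, and 0.386 was the smallest adjusted p of a subunit in any of the 23 fits (edgeR, limma or DESeq2). In all, 18 subunits were lower in every fit and 17 were higher in at least 1. The fits share most of their libraries, and the same share over all tested genes was not computed. These counts therefore do not set the subunits apart from other genes.

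Split by role under the length and GC trends, the 6 core subunits had a median of -0.13, with 6 lower, and the 29 accessory subunits had -0.019, with 17 lower. Of all tested genes 50.9% were lower in that fit. Without any trend these medians were -0.19 and -0.11. The core genes have longer transcripts (median 1245 bases) than the accessory ones (662 bases). Under the same trends the matrix arm by name had -0.030, with 6 of 10 lower, and the membrane arm had -0.032, with 8 of 12 lower (50.9% of all genes). The difference between core and accessory subunits was not tested.

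**Figure D5:**
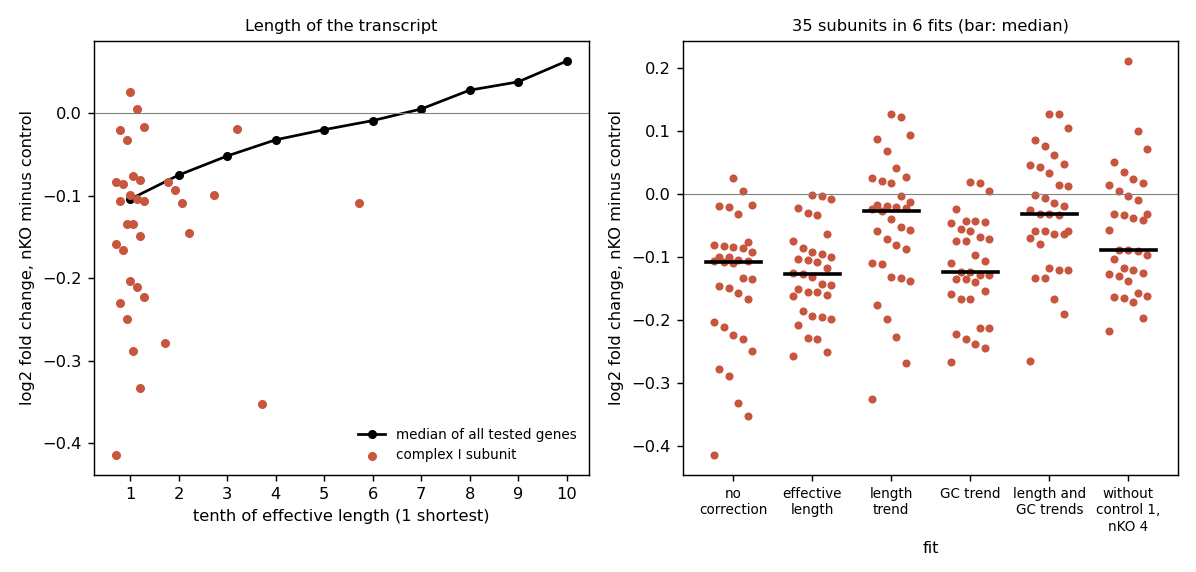
Left, median log2 fold change of all tested genes in 10 bins of effective length (line, bin 1 shortest), with the 35 subunits (red points, spread sideways within their bin). Right, log2 fold changes of the 35 subunits in 6 fits, with medians as black bars. The line climbs from -0.10 to 0.06, 26 subunits sit in the shortest bin, and the median over the subunits moves from -0.11 without a correction to -0.027 with a length trend.

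The levels of the subunits relative to each other were compared per length, as TPM in controls. Ndufb9 was highest at 629 ± 60.2 TPM (SD, n = 5), followed by Ndufa3 (556 ± 63.7), Ndufb8 (486 ± 59.2), Ndufb4 (475 ± 30.0) and Ndufa5 (424 ± 49.0). At the other end were Ndufb2 (147 ± 12.8), Ndufs4 (122 ± 12.9) and Ndufa11 (38.9 ± 2.73). The low value of Ndufa11 rests on the deposited length of 2661 bases, whereas the GENCODE transcript matched to it has 545 bases, so its place in the order is uncertain. Between 150 and 300 TPM lay 25 of the 35. Of the 34 neighbouring pairs in this order, 26 differed by no more than the larger of their SDs, so that most of the order in the middle cannot be resolved. Pairs that stood further apart included Ndufb9 over Ndufa3 and Ndufa3 over Ndufb8. The core subunits ranked from 8 (Ndufs3, 294 ± 27.7) to 32 (Ndufs7, 180 ± 25.9).

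Transcript usage within the subunits was compared where it could be. RefSeq lists several transcripts in the tables for 14 of the 35, and for 8 of them at least 2 transcripts each held 5% or more of the gene's TPM, which gave 17 transcripts. In an exact two-sided permutation test over the 10 libraries, 0 of the 17 passed 5% after adjustment (smallest adjusted p 0.135), and 1 had an unadjusted p under 0.05. This was a short transcript of Ndufa5 (NM_001311068, 437 bases). It held 3.92, 4.67, 5.30, 4.80 and 3.89% of the gene's TPM in controls and 5.45, 5.50, 5.56, 6.17 and 6.71% in nKO. The groups did not overlap, with means of 4.52 ± 0.605% and 5.88 ± 0.550% (SD, n = 5; exact permutation p = 0.00794, the smallest this design allows). At that p, 1 transcript alone among the 17 gets an adjusted p of 0.135 in this permutation test. A single transcript could therefore not pass 5%, however far apart its groups. The uncertainty of dividing reads among similar transcripts is not part of this test. Ndufv3 has a short and a long form, and the short one (487 bases) held 94.6 ± 1.31% in controls and 94.97 ± 0.603% in nKO (SD, n = 5).

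Genes that act with complex I were described from lists of the same pathway. Of the 17 tested complex I assembly factors, proteins that build the complex and leave it, 14 were lower (52.2% of all genes were), with a median of -0.088 and 0 past 5%. Tmem186, a factor of the membrane arm, had -0.24 (SE 0.10) and Ndufaf3, a factor of the part near ubiquinone, -0.28 (SE 0.12). Ndufaf8 had -0.59 (SE 0.32) and Foxred1 -0.17 (SE 0.10). Ndufaf3 and Ndufaf8 were both at -0.14 without control 1 and nKO 4. Among the subunits of the other complexes (II to V) 36 of 39 lay below zero, with a median of -0.093 and 0 past 5%. The lowest unadjusted p there belonged to Atp5b, the beta subunit in which ATP synthase makes ATP, with 1129 ± 40.2 CPM in controls against 1002 ± 41.7 CPM in nKO (SD, n = 5) and a log2 fold change of -0.17. Atp5a1, its alpha subunit, also had -0.17, Cyc1, cytochrome c1 of complex III, had -0.31 (-0.20 without control 1 and nKO 4), and Cox5b of cytochrome c oxidase had -0.18.

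The short transcripts of both kinds of ribosome showed medians of similar size. Of 78 mitochondrial ribosomal proteins 60 were lower (median -0.074), and of 79 cytosolic ribosomal proteins 68 were lower (median -0.0997), with 0 past 5% in either list. Mrpl12 had -0.95 (SE 0.27) and Mrps23 -0.23 (SE 0.089), while Rps16 had 0.90 (SE 0.30) and Rpl7a -0.23 (SE 0.082). With length and GC trends the medians were -0.047 for the assembly factors, 0.0053 for complexes II to V, 0.0044 for the mitochondrial and -0.0096 for the cytosolic ribosomal proteins, beside -0.032 for complex I. Without control 1 and nKO 4 they were -0.10, -0.077, -0.065 and -0.035, beside -0.089 for complex I. The 15 regulators of mitochondrial gene expression, which have long transcripts (median 4202 bases), had 6 lower and 9 higher, with a median of 0.06 and 0 past 5%. Among them Ppara, a nuclear receptor for fatty acids, had 0.27 (SE 0.12), Nfe2l2 0.18 (SE 0.099), Ppargc1b 0.21 (SE 0.12) and Yy1 0.14 (SE 0.087). Nfe2l2 was at 0.080 and Yy1 at 0.079 without control 1 and nKO 4.

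Markers of the cell types in cortex were summed for each library. The 12 markers of excitatory neurons came to 1910 to 3016 CPM in controls and 2286 to 2701 CPM in nKO, the 12 of inhibitory neurons to 1127 to 1281 and 1151 to 1231 CPM, and the 10 of astrocytes to 5546 to 6035 and 6011 to 6884 CPM. The ranges of the groups overlapped in these and in the 8 other lists, which covered oligodendrocytes and their precursors, microglia, vessels, blood and neighbouring tissues, and no marker was at 0 in every library. Gene by gene, the 4 tested blood cell markers had a median log2 fold change of -0.67 (-0.99 without control 1 and nKO 4), with 3 lower, 2 of them at an unadjusted p under 0.05. The 10 microglia markers had -0.12 (0.01 without those libraries), with 7 lower (52.2% of all tested genes were). Higher medians were 0.10 (0.22 without those libraries) for the 8 oligodendrocyte precursor markers and 0.05 (0.20) for the 12 of excitatory neurons. The 4 tested hippocampus markers had 0.07 (0.28). The remaining lists had medians from -0.06 (astrocytes) to 0.10 (choroid plexus and meninges). None of these markers passed 5%. The part of cell composition in the levels of the subunits was not tested.

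Promoters of the subunits were searched for the letters of factors known to act on respiratory genes. RefSeq promoter windows (250 bases before to 50 after the start, GRCm38) were at hand for 32 of the 35 genes, in 34 windows. On either strand, GCATGCGC, the core of the site of NRF1, was in 3 of 34 windows (8.82%) against 2.71% of all 32851 windows in the table. CCGGAAGT, a site of ETS factors such as GABPA, was in 1 (2.94% against 3.89%), and ATGGCGGC, a site of YY1, in 7 (20.6% against 2.24%). In 5 of those 7, for Ndufa9, Ndufb5, Ndufs4, Ndufs6 and Ndufs7, the letters begin at the annotated start codon and so also spell the first codons of the protein. The other 2 are overlapping windows of Ndufa7. A match of letters is a description and does not show binding.

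The 3 genes with the NRF1 letters are Ndufa11 (chr17:56717662-56717761, plus strand), Ndufa6 (chr15:82354292-82354391, minus strand) and Ndufa8 (chr2:36049339-36049438, minus strand). Their 100 bases upstream of the start are printed to show where the letters lie, in capitals, within sequence that is otherwise in lower case, 5′ to 3′ on the strand of the gene. In Ndufa11 the letters occur on both strands and overlap, so that the capitals run over 10 bases.
Ndufa11: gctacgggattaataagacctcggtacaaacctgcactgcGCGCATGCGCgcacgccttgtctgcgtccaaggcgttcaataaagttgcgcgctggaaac
Ndufa6: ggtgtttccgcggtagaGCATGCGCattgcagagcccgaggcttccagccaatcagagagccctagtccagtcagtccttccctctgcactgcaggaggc
Ndufa8: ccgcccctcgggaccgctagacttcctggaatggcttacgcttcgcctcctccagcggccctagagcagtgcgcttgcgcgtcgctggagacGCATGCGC

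The 3 genes differed in their values: log2 fold changes were -0.35 (SE 0.23) for Ndufa11, -0.16 (SE 0.085) for Ndufa6 and -0.17 (SE 0.14) for Ndufa8, and without control 1 and nKO 4 they were -0.0098, -0.16 and 0.02. Ndufa6 read 51.8, 43.0, 49.9, 45.7 and 41.2 CPM in controls and 38.2, 41.3, 39.9, 45.8 and 42.4 CPM in nKO. In contrast to Ndufa11 and Ndufa8, its nKO 4 value was the highest of the nKO libraries.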

How the data were processed

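Cortex RNA of 10 mice was analysed, 5 in each genotype group. Per the labels' protocols, RNA was isolated with TRIZOL, DNase-treated, depleted of ribosomal RNA and fragmented for 6 minutes in making strand-specific libraries. Salmon, DESeq2, bcl2fastq and the mm10 build are named in the submitters' processing notes; which annotation was used is not given there. The gene and transcript tables that the authors deposited for each library hold estimated counts (reads assigned to each feature, not always whole), TPM and effective lengths, per the file headers. Salmon divides reads that fit several transcripts, so values of similar genes depend on that division. For all 35 subunits the gene value equalled the sum of its transcripts within 2 reads.

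The subunits, gene lists and markers were chosen with earlier results of these data known, so no count of them is independent evidence, and no test was run over a list. Estimated counts were rounded and filtered with filterByExpr (minimum count 10, minimum total 15). The groups were compared with edgeR 4.0.16 (R 4.3.3): TMM, robust quasi-likelihood F test, and Benjamini-Hochberg adjustment over all 14378 tested genes at 5%. SEs of log2 fold changes were derived from the estimate and the F statistic. Replicate numbers only name libraries, and the labels give no batch, litter or pairing. Values for each library rest on 14812639 to 24161361 estimated counts.

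In the text, each library value is given for the 6 core subunits, the 5 members with the smallest p, the 3 highest and the 3 lowest log2 fold changes, members without overlap, and members with a transcript share at an unadjusted p under 0.05. Up to 4 genes with the smallest p are named for each other pathway list (2 for ribosomal lists). Values of Ndufs5 and Ndufa6 in each library were added after they had been seen. GC content came from a GENCODE transcript of GRCm38 (98.3% of tested genes, all 35 subunits). It was the one matched to the most abundant RefSeq transcript among those with a match. This need not be the gene's most abundant transcript. For Ndufb2 the transcript used held 22.7% of the gene's TPM in controls, against 73.8% for another. For some subunits the length of the GENCODE transcript differed from the deposited length, so their GC content is uncertain. It had 3479 bases against 664 for Ndufab1, 971 against 454 for Ndufb4, and 2020 against 1209 for Ndufa10. For Ndufa5 it had 875 against 505, and for Ndufa11 545 against 2661. For Ndufb2 it had 455 against 845, for Ndufa12 566 against 1025, and for Ndufa3 515 against 349. Smaller differences in other subunits are not listed.

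Alternatives were scaling by DESeq2 size factors or by library size, the DESeq2 1.42.0 Wald test, limma-voom (limma 3.58.1), no filter, a CPM of at least 1 in 5 libraries, effective length offsets, a lowess trend on length (span 0.3) for each library as an offset, transcript sums, and libraries left out. Trends on GC content, alone or after length, were chosen after seeing the data. On simulated counts of 14288 genes for this comparison, edgeR found 60 of the 100 genes set to a 1.5-fold change and 84 of the 98 set to a 2-fold change, and made 7 false calls.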

Additional observations from a re-analysis of the deposited data

Results flagged for a closer look

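In each group of 5 libraries the highest and the lowest value of every subunit was compared with its neighbour, and a value was singled out where the gap exceeded 0.710 of the group's range (Dixon's 95% criterion). Chance alone singles out about 1 group in 20. Of 70 groups of subunit levels, 11 had such a value. Control 1 was high in 7 of them: Ndufs7 at 50.8 CPM, Ndufs8 at 58.8 CPM, Ndufa8 at 58.1 CPM, Ndufa11 at 44.5 CPM, Ndufa7 at 43.8 CPM, Ndufa2 at 39.6 CPM and Ndufb7 at 37.9 CPM. Low values in nKO 4 accounted for 3: Ndufa7 at 16.7 CPM, Ndufa1 at 26.6 CPM and Ndufb6 at 28.7 CPM. The remaining one was Ndufa12, a matrix arm subunit, at 84.0 CPM in control 3, the most deeply sequenced library. None of the transcript shares was singled out.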

How the results depend on the processing

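No paired analysis was possible because the labels give no litter, pairing or batch and the replicate numbers only name libraries. In 22 alternative fits 0 subunits passed 5%, and Atad3a passed it in all of them, with a log2 fold change from -1.15 to -0.97 with 1 library left out. The number of subunits at an unadjusted p under 0.05 was 4, and 9 with effective length offsets, 8 with GC trends, 1 with length trends and 2 without control 1 and nKO 4. It ran from 1 to 4 with 1 library left out. The number lower was 30 to 35, and the median -0.14 to -0.083, with 1 library left out. The median after the trend on effective length (-0.013) was -0.037 with annotated transcript length and -0.12 with a trend on GC content in its place. The cause was not tested.

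For the 16 subunits chosen by the naming rule, 329 of 352 recomputed log2 fold changes kept their sign and 23 did not. Ndufa3, near zero at 0.0047, was -0.0021 with DESeq2 size factors, -0.0074 with library size alone, -0.0023 with DESeq2, -0.0014 without a filter, -0.0035 with the CPM filter, -0.033 with effective length offsets and -0.0024 with transcript sums. Ndufa5 was -0.0018 with effective length offsets and -0.039 without control 1 and nKO 4. Ndufab1 was 0.088 with length trends and 0.075 with length and GC trends. Without control 1 and nKO 4, Ndufb7 was 0.21 and Ndufs7 0.099. With 1 library left out, Ndufa3 ran from -0.047 to 0.051, Ndufa5 from -0.020 to 0.071, Ndufab1 from -0.060 to 0.020, and Ndufb7 from -0.46 to 0.063. Of the 2 subunits added to those, Ndufa6 was lower in 23 of 23 fits and Ndufs5 in 18. The cause of these sign changes was not tested. The subunits' estimated differences were smaller than 1.5-fold, the smallest change in the simulated counts, so the share of such differences that could be called is not known. The intervals of some subunits reached past 1.5-fold, among them Ndufs7 (log2 -1.06 to 0.23) and Ndufb7 (log2 -1.04 to 0.37). Those of most subunits did not. True differences of that size are therefore not excluded for every subunit.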

Other observations

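Ndufs5, the membrane arm subunit with a matrix arm name, had the widest spread between animals after Ndufb7, Ndufs7 and Ndufa11, with 27.7 ± 8.36 CPM in controls against 26.0 ± 6.48 CPM in nKO (SD, n = 5 in each group), with control 4 its highest and nKO 5 its lowest library. Its GC content (53.3%) was near the median of the subunits. Ndufb11 was divided almost evenly between a transcript of 820 bases (47.4 ± 13.9% of its TPM in controls and 53.2 ± 19.7% in nKO, SD, n = 5) and one of 908 bases, with a spread between animals that exceeded the difference between the groups. Ndufa5 carried a transcript with a non-coding RefSeq record (456 bases) at 43.3 ± 6.12% of its TPM in controls and 43.4 ± 5.92% in nKO (SD, n = 5), so that its summed gene level counts RNA that RefSeq does not list as coding.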
